A study of Mus musculus with 4 samples.

Results

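The noninduced retina of Tet-opsin-VEGFA mice gave 1 chromatin immunoprecipitation library made with an antibody to transketolase, and its peaks were called against 1 input library of the same condition. Retina was crosslinked with methanol and sonicated, per the labels' protocols. Every peak of that list was taken, each position counted once, which gave 18267 of the 49058 peaks deposited for the series. The other 30791 peaks came from the induced retina, a separate ChIP library with an input of its own. Peaks were ranked by tag density, the number of ChIP tags in the peak divided by its length, given here as tags per kb.

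The study dealt with transketolase and endoplasmic reticulum (ER) stress in a VEGF-overexpressing model of AMD. Mice of both conditions carried the Tet-opsin-VEGFA transgene, and the noninduced mice were the control. The series text gives 2 retinas per condition, and each condition had 1 ChIP and 1 input library, 4 libraries in all. The cell type that drives the transgene, the inducing agent and its duration, the age and sex of the animals, and whether retinas were pooled for a library are not stated in the labels. Retina is a mixture of cell types, and a peak in whole tissue does not show which cells it came from. A peak on DNA is no measure of expression, so the tissue label could not be checked against marker genes.

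Transketolase carries out sugar-phosphate exchanges in the nonoxidative branch of the pentose phosphate pathway, with thiamine diphosphate as cofactor. The pathway supplies ribose for nucleotides and, through its oxidative branch, NADPH for antioxidant defence, a demand that is high in photoreceptors. In ChIP-seq, DNA that stays with the antibody's target is sequenced, and a peak is a stretch where ChIP tags exceed a background estimated by the peak caller.

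Promoters were the sites for which sequence could be read. The following windows, from RefSeq on GRCm38.p6, give the 250 bases before a start site, 5′ to 3′ on the strand of the gene. The first 4 are the densest promoter peaks that covered a whole window of a gene with a name other than a predicted Gm gene, and Ero1a (Ero1l in the deposited list), an ER oxidase, is the ER stress gene with such a window. Capitals mark the box CCAAT, the GC box GGGCGG, the box TATAAA or the E-box CACGTG on either strand.
Ftl1, chr7:45459887-45460136, minus strand: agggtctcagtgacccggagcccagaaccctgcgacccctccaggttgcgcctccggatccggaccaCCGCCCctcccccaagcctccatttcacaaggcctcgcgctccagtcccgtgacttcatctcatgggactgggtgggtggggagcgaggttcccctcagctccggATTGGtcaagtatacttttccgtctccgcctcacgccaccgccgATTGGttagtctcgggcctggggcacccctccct
Pigp, chr16:94370331-94370580, minus strand: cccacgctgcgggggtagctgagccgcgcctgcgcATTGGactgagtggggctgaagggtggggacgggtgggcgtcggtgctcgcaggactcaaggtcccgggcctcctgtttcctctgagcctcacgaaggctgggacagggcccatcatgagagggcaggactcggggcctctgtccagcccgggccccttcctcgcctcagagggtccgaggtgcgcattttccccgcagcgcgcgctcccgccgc
Tbc1d14, chr5:36582398-36582647, minus strand: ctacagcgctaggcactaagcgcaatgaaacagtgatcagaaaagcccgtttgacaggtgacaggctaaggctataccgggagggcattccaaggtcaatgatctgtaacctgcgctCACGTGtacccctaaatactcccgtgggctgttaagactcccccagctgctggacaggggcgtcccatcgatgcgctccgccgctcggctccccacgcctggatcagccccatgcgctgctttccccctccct
Trim38, chr13:23782291-23782540, plus strand: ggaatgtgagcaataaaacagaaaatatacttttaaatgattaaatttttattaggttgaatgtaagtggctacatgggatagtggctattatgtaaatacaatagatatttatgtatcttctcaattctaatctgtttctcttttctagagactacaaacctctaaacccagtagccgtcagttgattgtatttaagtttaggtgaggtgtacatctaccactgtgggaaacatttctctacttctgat
Ero1a, chr14:45318573-45318822, minus strand: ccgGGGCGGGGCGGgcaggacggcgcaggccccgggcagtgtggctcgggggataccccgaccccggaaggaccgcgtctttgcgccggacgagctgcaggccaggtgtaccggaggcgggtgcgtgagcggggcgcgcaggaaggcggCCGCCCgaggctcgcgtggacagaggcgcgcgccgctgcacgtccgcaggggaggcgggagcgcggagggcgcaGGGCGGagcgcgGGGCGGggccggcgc
The 5 windows spanned a wide range of composition. The G+C content of these 250 bases was 65.2% at Ftl1, 70.8% at Pigp, 59.2% at Tbc1d14, 32% at Trim38 and 80.8% at Ero1a.

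The list was narrow in density. Its peaks held 351574 tags over 13.5 Mb, and the total depth of the library was unknown because the file gives tags within peaks. The median peak held 18 tags over 712 bp, and 77.5% of peaks held 20 tags or fewer, above a floor of 14. Tag density had a median of 24.9 tags per kb, with quartiles of 23.3 and 27.2, and the 1st and 99th percentiles of 20.5 and 38.1 differed 1.86-fold. Beyond them a few peaks stood far above the rest: 17 peaks exceeded 100 tags per kb and held 8887 tags, 2.53% of the total. There were no replicates, so intervals below are 95% Wilson intervals that cover counting error, not the spread between animals.

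**Figure D1:**
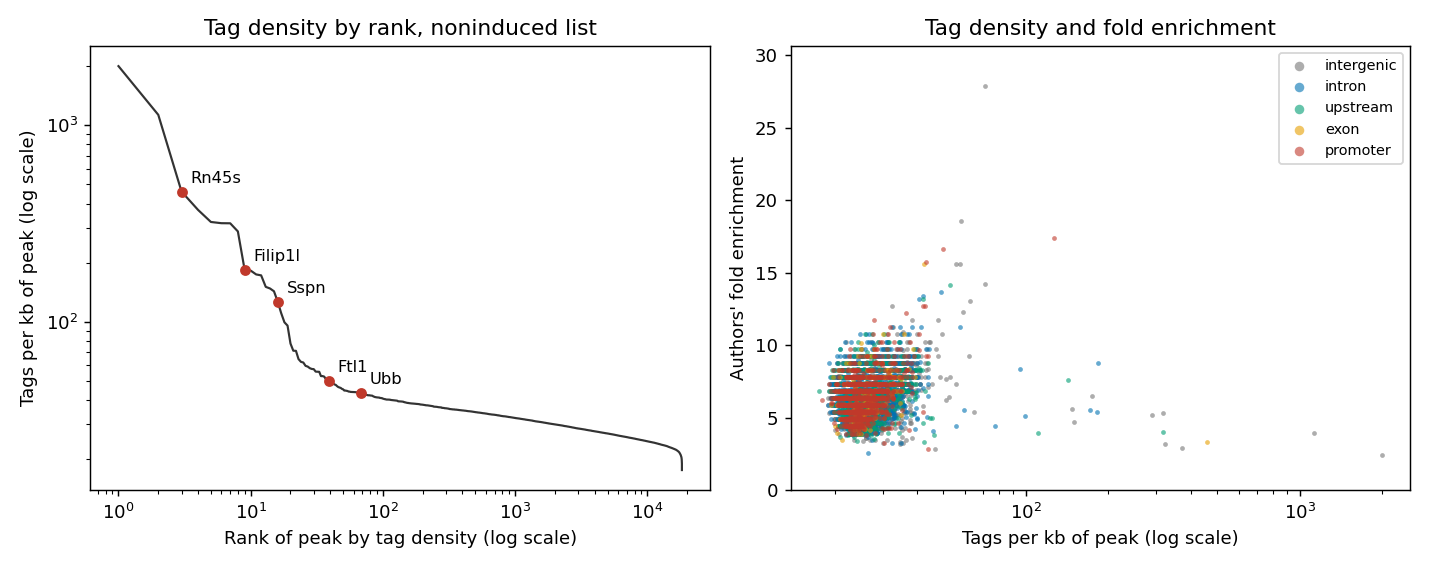
Left, tag density (tags per kb, log axis) of each peak against its rank (log axis), with 5 named peaks marked. Right, tag density against the authors' fold enrichment, coloured by position class. The steep part on the left holds the 17 peaks over 100 tags per kb, and most of them lie low on the fold axis on the right.

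The peaks over 100 tags per kb mostly had low fold enrichment, which did not extend further down the ranking. The median fold was 3.98 in the 10 densest peaks, 6.92 in the 50 densest and 7.96 in the 100 densest, against 5.86 over the list. The leading pair stood on chromosome 2, with centres 1194947 and 1197544 bp from the start site of Lrrc4c, the gene they were assigned to, which encodes a synaptic netrin-G ligand. The first (chr2:98662103-98663104, mm10) held 2009 tags, or 2005 tags per kb, at 2.45-fold. The second (chr2:98664767-98665634) held 983 tags, or 1132 tags per kb, at 3.94-fold. Next came the exon of Rn45s, the precursor of ribosomal RNA, with 2937 tags over 6385 bp, or 460 tags per kb at 3.33-fold. By the deposited classes, 9 of the 17 peaks over 100 tags per kb were intergenic, 3 intronic, 3 upstream, 1 in an exon and 1 in a promoter. Promoters made up 11% (6.25 to 18.6) of the 100 densest peaks, against 8.47% of all. The folds of the 17 ran from 2.45 to 17.41, and 13 of the 17 lay below the list's median fold of 5.86. Across all peaks, which are not independent replicates, density had a Spearman correlation of 0.351 with fold, −0.546 with length and 0.62 with −log10 p. Length is the divisor in density, so the value for length is partly built into the measure.

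Other leaders that the deposited list classes as intergenic were a peak assigned to Tbc1d14 (371 tags per kb, 2.94-fold), a regulator of autophagy, and one near 2010315B03Rik (322 tags per kb, 3.19-fold). In RefSeq the first of them lay within D5Ertd579e and Gm32584. A peak near Asmt, the gene of the last enzyme of melatonin synthesis, stood at 317 tags per kb and 5.34-fold. The densest upstream peaks were those of Adgre5 (318 tags per kb, 4.02-fold), an adhesion receptor, Limd1 (143 tags per kb, 7.62-fold), Gm32461 (111 tags per kb, 3.98-fold), Klf4 (52.8 tags per kb, 14.17-fold) and Rn4.5s (46.2 tags per kb, 3.82-fold). In RefSeq the Limd1 peak lay within Lars2 and the Gm32461 peak within Gm32624. Klf4 encodes a zinc-finger transcription factor, and its peak (chr4:55537113-55537718), classed as upstream, lay within Gm12506. The fold of the Klf4 peak exceeded the 99th percentile of the list, 9.29, unlike that of the other 4.

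Intronic peaks led at Filip1l, Cdk8, Flt1, Jarid2 and Ppp1r9a. The Filip1l peak (chr16:57390802-57392193) held 256 tags, or 184 tags per kb at 8.76-fold, and also lay within Cmss1. Cdk8, a kinase of the Mediator complex, held 138 tags, or 182 tags per kb at 5.41-fold. Flt1, which encodes a receptor for VEGFA, held 136 tags in an intron (chr5:147611328-147612117), or 172 tags per kb at 5.57-fold. The Flt1 peak was the 12th densest of the list. Jarid2, a partner of Polycomb complexes, stood at 99.3 tags per kb and 5.15-fold, and Ppp1r9a, a neuronal scaffold of actin, at 95.5 tags per kb and 8.33-fold.

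The 28 of the 50 densest peaks that also overlapped a peak of the induced list made up 56% (42.3 to 68.8), against 2.73% (2.50 to 2.97) of all peaks. The induced list is a separate library that the ranking did not use. Whether the shared positions gather many tags whatever the antibody was not tested, and the list gives no input tags. Both Lrrc4c peaks, Rn45s, Filip1l, Cdk8, Flt1 and Jarid2 were among those that overlapped. The peaks near Tbc1d14 and 2010315B03Rik and that of Ppp1r9a did not. Below the top the share dropped quickly. It was 5.58% (4.62 to 6.73) in the densest of 10 equal parts of the ranking, 1.86% (1.33 to 2.59) in the next, and 3.01% (2.32 to 3.90) in the last.

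Annotated pseudogenes lay under 4 of the 50 densest peaks, 8% (3.15 to 18.8), and under 296 of all peaks, 1.62% (1.45 to 1.81). Ranked by fold in place of density, the top 50 held 26%. The 2 rankings shared 14 of their top 50 peaks. Besides Rn45s, over Rn18s-rs5, the 4 were the peaks over Gm6789 near Txnl1 (58.0 tags per kb, 18.57-fold), Gm6977 near Gm44 (57.3 tags per kb, 15.64-fold) and Gm13456, assigned to Ppp6c (55.5 tags per kb, 15.64-fold), all named here after their values were seen. The labels do not say how reads that match several copies were handled, so tags at pseudogenes, ribosomal RNA and other multicopy genes are uncertain in place.

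**Figure D2:**
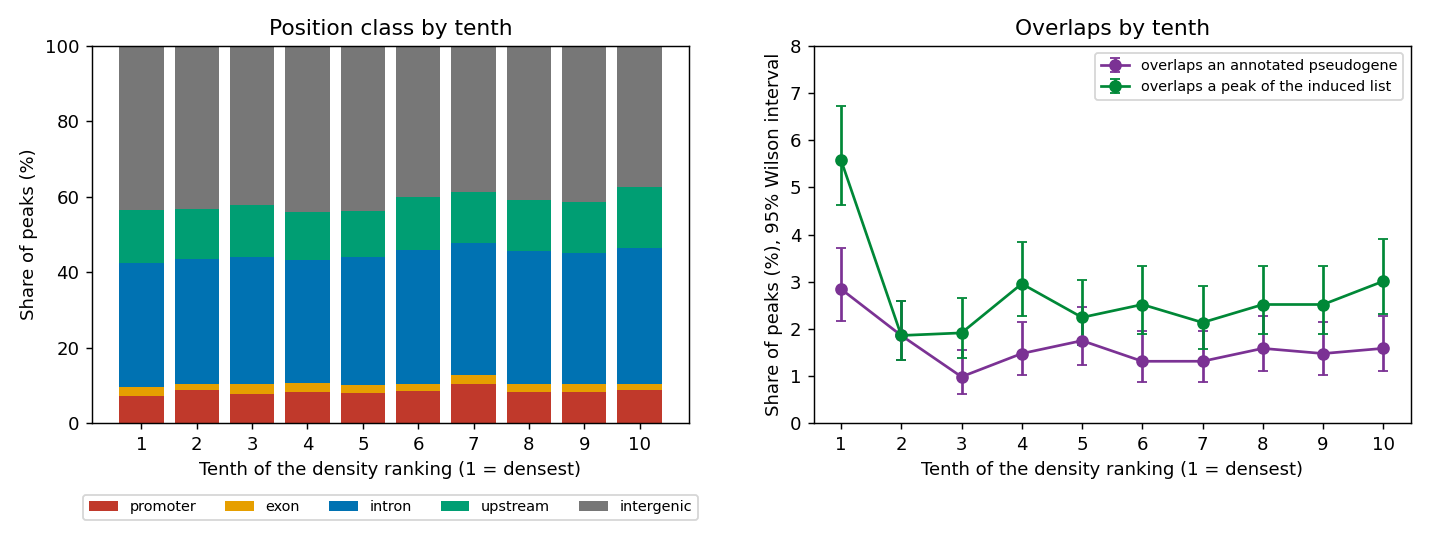
Peaks in 10 equal parts of the density ranking, from densest (1) to least dense (10). Left, share of each position class. Right, share that overlaps an annotated pseudogene or a peak of the induced list, with 95% Wilson intervals. The densest part stands at 5.58% for induced peaks and 2.85% for pseudogenes, while promoter shares lie between 7.28% and 10.3%.

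Position classes differed little in median density. It was 24.8 tags per kb for promoter, 25.0 for exon, 24.8 for intron, 24.8 for upstream and 25.0 for intergenic peaks, and the quartiles of each class overlapped those of the others. They differed more in score. A −log10 p of 10 or more was reached by 28 of 1547 promoter peaks (1.81%) and by 8 of 384 exon peaks (2.08%). The counts were 41 of 6253 intron peaks (0.656%), 23 of 2496 upstream peaks (0.921%) and 53 of 7587 intergenic peaks (0.699%). Promoters made up 7.28% (6.18 to 8.56) of the densest of the 10 parts, 10.3% (8.98 to 11.8) of the seventh and 8.76% (7.55 to 10.1) of the last, against 8.47% (8.07 to 8.88) overall. Intergenic peaks went from 43.5% (41.3 to 45.8) of the densest part to 37.4% (35.2 to 39.6) of the last. Median length went the other way, from 534 bp in the densest part to 911 bp in the last, at 18 and 19 median tags. Length is the divisor in density and median tags hardly varied, so this change in length is largely built into the ranking.

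Promoter peaks were led by Sspn, Ftl1 and a set of small-RNA, ubiquitin and ribosomal loci. Sspn, a member of the dystrophin complex, held 67 tags in 529 bp, or 127 tags per kb. Its peak (chr6:145932729-145933257) was centred 1120 bp downstream of the start site and overlapped an induced peak. Ftl1, the ferritin light chain, followed with 41 tags, or 49.6 tags per kb, and its peak covered the whole window printed above. The next were Rn4.5s (334 tags over 7581 bp, 44.1 tags per kb at 2.82-fold) and Mir466d (59 tags, 43.8 tags per kb at 9.26-fold). After them came Eid1, an inhibitor of differentiation (44 tags, 43.2 tags per kb at 9.29-fold), and Ubb, a ubiquitin gene (60 tags, 43.1 tags per kb).

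The tenth place and those just before it went to Rplp2-ps1 (42.8 tags per kb), Defb7 (42.1 tags per kb), Apoe (42.0 tags per kb) and Pigp (40.9 tags per kb). Rplp2-ps1 is an annotated pseudogene, and the Defb7 peak lay over Rpl19-ps11, upstream of Defb7, a defensin gene. Apoe, the lipid carrier that Müller glia express, held 58 tags over 1380 bp (chr7:19696130-19697509) at 5.43-fold, below the median fold. Pigp acts in the first step of glycolipid anchor synthesis, and its peak was shared with the start site of Ttc3. Among these 10 promoters, Sspn, Mir466d, Ubb, Rplp2-ps1 and Defb7 overlapped an induced peak and Ftl1, Rn4.5s, Eid1, Apoe and Pigp did not.

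Peak centres gathered around start sites, more on the transcribed side. Of 1547 promoter peaks, 844 were centred downstream and 702 upstream, a downstream share of 54.6% (52.1 to 57.0). The 250 bp just after the start site held 177 centres and the next 250 bp held 165, against 119 and 120 in the corresponding stretches before it. From 1750 to 2000 bp the counts were 69 downstream and 61 upstream. Median density stayed between 24.3 and 25.4 tags per kb in each of these 250 bp steps. The listed peaks span little in density, so these medians cannot show whether binding strength changed near start sites.

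Promoter windows with a peak were rich in G+C. Of 32817 RefSeq windows of 300 bases, from 250 before to 50 after a start site, 688 touched a peak and 317 lay wholly inside one. Windows of close start sites can overlap and share a peak, and the intervals on window shares do not allow for that. The median G+C content was 61% in windows that touched a peak, with quartiles of 52 and 67.3, and 52.7% in those with none, with quartiles of 45.7 and 61.3. The median number of CpG dinucleotides was 20 against 7. Peaks touched 0.970% (0.795 to 1.18) of windows with 40 to 50% G+C and 4.07% (3.61 to 4.58) of those with 60 to 70%. Median density was 24.7 tags per kb at the former and 24.4 at the latter, which likewise cannot show whether binding strength differed. The G+C content of the input library was not measured here, and its part in the difference in shares was not tested.

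Shares of short motifs also differed between windows with a peak and all windows, and were not compared at matched G+C content. GGGCGG, counted on both strands like all motifs here, stood in 58.0% (54.3 to 61.6) of windows that touched a peak and 35.6% of all windows. CCAAT stood in 32.3% (28.9 to 35.9) against 37.4%, TATAAA in 8.87% (6.96 to 11.2) against 13.6%, and CACGTG in 9.45% (7.48 to 11.9) against 7.15%. A match is a stretch of letters, not a shown binding site. The ER stress element, which is CCAAT and CCACG with 9 bases between them and so includes CCAAT, stood in 39 of all windows (0.119%) and in 2 of the 688 (0.291%, 0.0798 to 1.05).

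**Figure D3:**
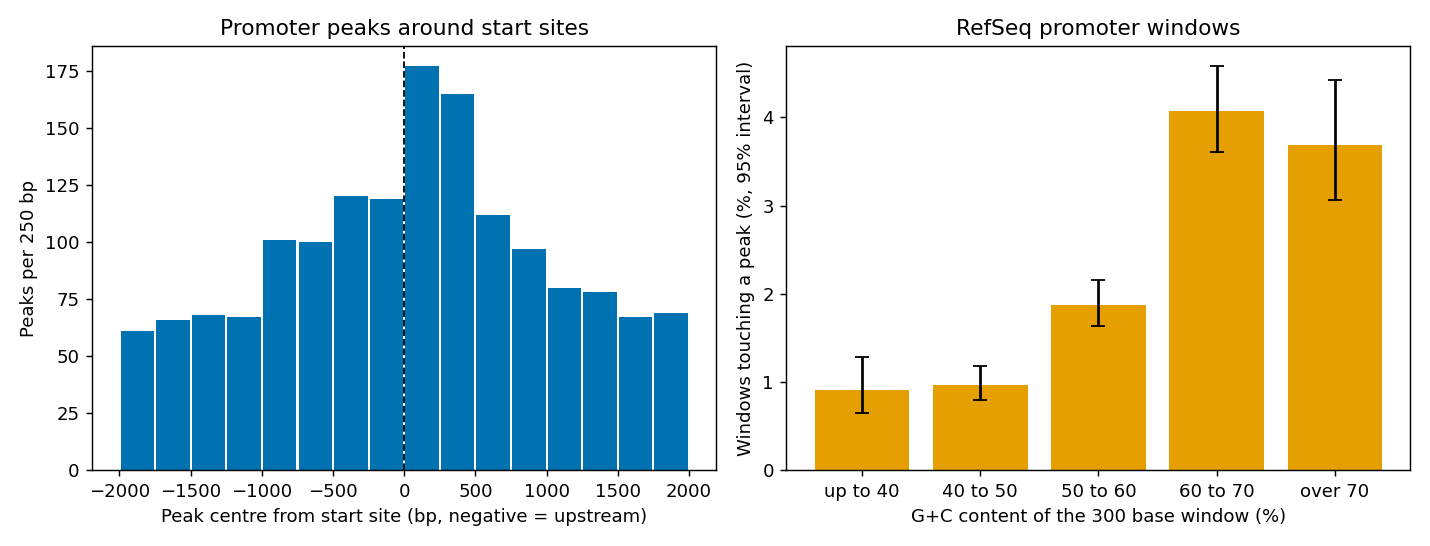
Left, number of promoter peaks by the distance of their centre from the nearest start site, in steps of 250 bp, with a dashed line at the start site. Right, share of RefSeq promoter windows that touch a peak by G+C content, with 95% Wilson intervals. Counts are highest, at 177, just downstream of the start site, and the share of windows is highest from 60 to 70% G+C.

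Both windows with the ER stress element shared 1 match, at the paired start sites of Calr and 1700122E12Rik. Calr encodes calreticulin, a calcium-binding chaperone of the ER lumen. The 250 bases before the Calr start site are shown with the match in capitals, where it reads on the opposite strand.
Calr, chr8:84846932-84847181, minus strand: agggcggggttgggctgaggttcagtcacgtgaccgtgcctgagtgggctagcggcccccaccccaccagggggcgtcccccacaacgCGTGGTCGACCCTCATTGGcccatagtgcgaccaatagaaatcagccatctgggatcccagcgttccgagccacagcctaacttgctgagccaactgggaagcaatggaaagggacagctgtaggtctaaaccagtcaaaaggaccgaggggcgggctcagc
The Calr peak (chr8:84846134-84847061) held 22 tags, or 23.7 tags per kb, at 5.86-fold. It took in 130 of these 250 bases, those nearest to the start site, and the match began 14 bp beyond its end. In density the peak ranked 12558 of 18267.

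Of 26215 RefSeq genes, 6.45% held a promoter peak, 1.43% an exon peak, 13.1% an intron peak, 9.24% an upstream peak and 15.4% an intergenic peak, 7.74% held a promoter or exon peak, and 34.7% any assigned peak. Like the other gene lists here, that of ER stress genes was drawn up with earlier results of these data known. ER stress genes held promoter peaks at 4 of 50 (8%, 3.15 to 18.8), an interval that includes the 6.45% over all genes. Besides Calr these were Ero1a (18 tags, 25.6 tags per kb), Vcp, an ATPase that extracts proteins for degradation (19 tags, 25.0 tags per kb), and Bbc3, a proapoptotic member of the BCL2 family (15 tags, 24.0 tags per kb). Exon peaks stood at 5 of 50 (10%, 4.35 to 21.4), against 1.43% of all genes, and a promoter or exon peak at 9 of 50 (18%, 9.77 to 30.8), against 7.74%. The exon peak of Hspa5, the gene of the chaperone BiP, was the densest of them with 29 tags, or 27.7 tags per kb (chr2:34775293-34776339), and it overlapped an induced peak. The others were Dnajc3, an inhibitor of the kinase PERK (24.7 tags per kb), Sel1l, an adaptor of the degradation machinery (24.6 tags per kb), Edem1, which marks misfolded glycoproteins (24.0 tags per kb), and Nploc4, a cofactor of Vcp (21.8 tags per kb). The 41 peaks assigned to ER stress genes ran from 20.5 to 33.4 tags per kb, with a median of 24.6 against 24.9 over the list.

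Tkt itself had no peak, and the nearest lay 51.9 kb from it (chr14:30496585-30497246, 18 tags), upstream of Cacna1d. Vegfa had none either, and the nearest lay 100.2 kb from it, an intronic peak of Rsph9 (20 tags, 37.5 tags per kb at 9.29-fold). The pentose phosphate genes held no promoter or exon peak, 0 of 14 (upper bound 21.5%), against 7.74% of all genes, which lies below that bound. Rpia, the isomerase that makes ribose phosphate, was the 1 member with assigned peaks, 3 intergenic ones of 14, 16 and 16 tags. Glycolysis and tricarboxylic acid cycle genes held promoter peaks at 2 of 35 (5.71%, 1.58 to 18.6), close to the 6.45% over all genes. They were Pdhb of the pyruvate dehydrogenase complex (24.2 tags per kb) and Sdhb of succinate dehydrogenase (22.5 tags per kb). Exon peaks stood at 0 of the 35 (upper bound 9.89%), against 1.43%.

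Photoreceptor and neuronal genes gave the following values. Phototransduction genes held promoter peaks at 5 of 37 (13.5%, 5.91 to 28.0), an interval that includes the 6.45% over all genes. Unc119, which carries transducin to the outer segment, was the densest (21 tags, 34.8 tags per kb). Rgs9, which speeds the switching-off of transducin, held 2 promoter peaks (30.0 and 28.2 tags per kb), and Guca1a, an activator of guanylate cyclase, held 1 (26.6 tags per kb). Sag and Rom1 were the other members. Retinal transcription factors held promoter peaks at 2 of 30, Rax (25.0 tags per kb) and Atoh7 (22.1 tags per kb), and exon peaks at Neurod4 and Rorb (24.0 tags per kb each). Any assigned peak stood at 20 of these 30 (66.7%, 48.8 to 80.8), against 34.7% of all genes. Assignment takes in peaks far from a gene: 57 peaks were assigned to these genes, and 19 lay inside them. Their promoter share of 6.67% (1.85 to 21.3) was close to the 6.45% over all genes.

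Ubiquitin and ferritin genes stood apart in share, though the list has few members and was drawn up with earlier results of these data known. Promoter peaks stood at 3 of 7 (42.9%, 15.8 to 75.0), against 6.45% of all genes: Ftl1, Ubb and Fth1. Ftl1 held a second promoter peak of 23 tags (28.6 tags per kb at 9.77-fold), and Fth1, the ferritin heavy chain, held 1 of 23 tags (27.2 tags per kb at 8.31-fold). Fth1 also held an exon peak of 23 tags (20.7 tags per kb). Among 20 cytoskeletal genes, a list also drawn up with earlier results known, the exon peaks were 4 (20%, 8.07 to 41.6), against 1.43%. They were Tmsb4x, an actin-sequestering peptide (38 tags, 42.3 tags per kb at 15.64-fold), and the tubulins Tubb5 (30.4 tags per kb), Tubb3 (23.8 tags per kb) and Tuba1c (22.6 tags per kb). Those 4 exon peaks each overlapped an induced peak, as did the exon peak of Fth1.

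Cytosolic ribosomal protein genes held promoter peaks at 10 of 85 (11.8%, 6.52 to 20.3), against 6.45%. Rps28 (28.2 tags per kb) and Rpl22 (26.0 tags per kb) led them, and 0 of the 10 overlapped an induced peak, where the share over all promoter peaks was 3.56%. The Rps28 peak was shared with the start site of Ndufa7. The median of these promoter peaks was 24.4 tags per kb, against 24.8 for all promoter peaks.

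Promoter peaks at markers of retinal cell types are read against the 6.45% over all genes, which lies within the interval of each list. The counts were 1 of 12 for Müller glia (Apoe), 2 of 12 for pigment epithelium (Pmel and Rgr), 2 of 12 for microglia (Cd68 among them) and 1 of 15 for amacrine and ganglion cells (Calb1). They were 0 of 12 for endothelial cells and pericytes and 0 of 12 for bipolar cells, with an upper bound of 24.2% for each. Some of these marker peaks had other genes too: that of Cd68 was also assigned to Mpdu1 and Mir1934, and that of Pmel to Cdk2. Pigment epithelium also had an exon peak at Stra6, the receptor for retinol-binding protein (24.0 tags per kb). Among genes of VEGF signalling and hypoxia, 1 of 25 had a promoter peak (4%, 0.710 to 19.5), an interval that also includes 6.45%. The member was Epas1, a hypoxia-inducible factor (24.0 tags per kb), and exon peaks at Nrp2, a coreceptor (26.9 and 23.8 tags per kb).

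**Figure D4:**
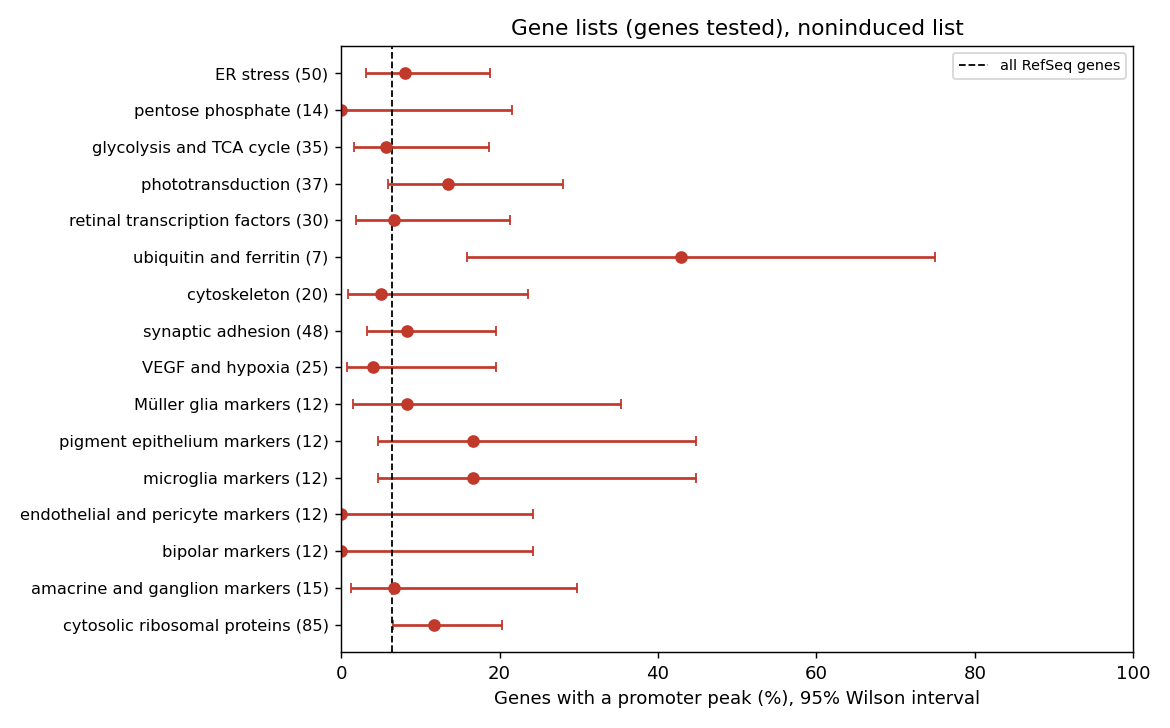
Share of the genes of each list (genes tested in brackets) with a promoter peak in the noninduced list, with 95% Wilson intervals. The dashed line is the 6.45% over all RefSeq genes. The lists were drawn up with earlier results of these data known. The interval of ubiquitin and ferritin genes, a list of 7, lies above the line. That of cytosolic ribosomal protein genes starts just above the line, at 6.52%.

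The densest exon peaks were those of Rn45s and Tmsb4x, given above. After them came Lect2, a secreted chemotactic factor (16 tags, 39.3 tags per kb), and Tmx4, an ER membrane thioredoxin (22 tags, 38.7 tags per kb). Mbp, which encodes a myelin protein and was singled out after its values were seen, held an exon peak of 60 tags (35.8 tags per kb at 10.75-fold). Exon peaks overlapped an induced peak in 35 of 384 cases (9.11%), against 55 of 1547 promoter peaks (3.56%), 157 of 6253 intron peaks (2.51%) and 175 of 7587 intergenic peaks (2.31%).

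Long genes more often held a peak, and yet per length they held fewer than short ones. Counted by assignment, which takes in intergenic peaks, Cadm2 had the most assigned peaks, 30, of which 21 were intronic, followed by Pcdh9 with 25, 1700101O22Rik with 24, Dcc and Dlg2 with 21 each, Lsamp and Pcdh15 with 20 each, Cntnap2 and Lrrc4c with 19 each, and Mir592 with 18. The peaks were mostly intergenic at Pcdh9 (17 of 25) and Lrrc4c (14 of 19), as were 23 of the 24 at 1700101O22Rik, a gene of 8.29 kb, and all 18 at Mir592. Most of these encode adhesion or synaptic proteins, and Dcc encodes the netrin receptor. Among autosomal protein-coding genes over 500 kb, 214 of 215 held a peak in their span, at 6.68 peaks per Mb. Of those under 10 kb, 385 of 7341 held one (5.24%, 4.76 to 5.78), at 12.9 per Mb. The steps between, 10 to 50, 50 to 100 and 100 to 500 kb, held 10.9, 10.8 and 8.91 per Mb. Genes that overlap each other share peaks in these counts.

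Of 48 listed synaptic and adhesion genes, 40 had an assigned peak (83.3%, 70.4 to 91.3), against 34.7% of all genes, and their median length was 911 kb. Inside them lay 314 peaks, 6.88 per Mb. Promoter peaks stood at 4 of 48 (8.33%, 3.29 to 19.6), an interval that includes the 6.45% over all genes, at Ctnna3, Macrod2, Ntm and Pcdh15. Exon peaks stood at Dlg2, a postsynaptic scaffold (31.0 tags per kb), Negr1 (27.7 tags per kb) and Lsamp (25.0 tags per kb). Single genes departed from the value for their length: Cadm2 held 22 peaks in its span, or 22.8 per Mb, and Stag1, a cohesin subunit of 361 kb, held 13, or 36.0 per Mb. Both were picked out after their values were seen.

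MicroRNA hairpins lay under peaks in 10 of 1005 cases (0.995%). Promoter windows of 300 bases, which are longer, touched a peak in 688 of 32817 cases. The mature forms of 4 of these hairpins are given from RefSeq, with the seed (bases 2 to 8) in capitals, to show which families they belong to.
mmu-miR-692: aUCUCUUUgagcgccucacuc
mmu-miR-15b-5p: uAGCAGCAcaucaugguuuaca
mmu-miR-17-5p: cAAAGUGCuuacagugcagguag
mmu-miR-18a-5p: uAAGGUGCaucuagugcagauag
The Mir692-2 hairpin lay under the densest of these peaks (27 tags, 29.6 tags per kb at 7.82-fold), which also overlapped the ferritin pseudogene Ftl2-ps. The Mir15b peak held 18 tags (29.4 tags per kb). Mir17 and Mir18, of a cluster known to promote proliferation, shared 1 peak of 17 tags (21.9 tags per kb), which was also assigned to their host Mir17hg. None of the peaks over these hairpins overlapped an induced peak, which 2.73% of all peaks did.

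Autosomes carried similar numbers of peaks per length. Measured from first to last annotated gene, they held 7.43 peaks per Mb, from 6.81 on chromosome 15 to 8.75 on chromosome 11, a 1.28-fold range. Median density hardly varied, from 24.7 on chromosome 14 to 25.1 tags per kb on chromosome 1. The promoter share varied more, from 5.36% (3.92 to 7.30) on chromosome 16 to 13.6% (11.7 to 15.8) on chromosome 11. Across the 19 autosomes it had a Spearman correlation of 0.891 with the number of protein-coding genes per Mb, whereas peaks per Mb had one of 0.358. These are descriptions over chromosomes of 1 library.

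The densest peak of a chromosome was intergenic on 12 of 21 chromosomes, intronic on 5, upstream on 2, and in a promoter (Ftl1, chromosome 7) and an exon (Rn45s, chromosome 17) on 1 each. It ranged from 2005 tags per kb on chromosome 2 down to 39.2 on Y, where Erdr1 held it. Genes named here are those the peaks were assigned to, which can be far away: the peak of C330004P14Rik was centred 310642 bp from its start site and that of Sp110, which lay within Gm7592, 60840 bp. On several chromosomes the densest peak was a modest one: Sp110 on chromosome 1 (51.0 tags per kb), C330004P14Rik on chromosome 10 (48.5), Ly6m on chromosome 15 (49.3), Cacul1 on chromosome 19 (44.4) and D130009I18Rik on chromosome 14 (42.0). The others not yet named were Pex2 on chromosome 3 (288 tags per kb), Gm8579 on chromosome 6 (150), Axin2 on chromosome 11 (174), 4930559C10Rik on chromosome 12 (148) and Mir6356 on chromosome 18 (59.0).

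**Figure D5:**
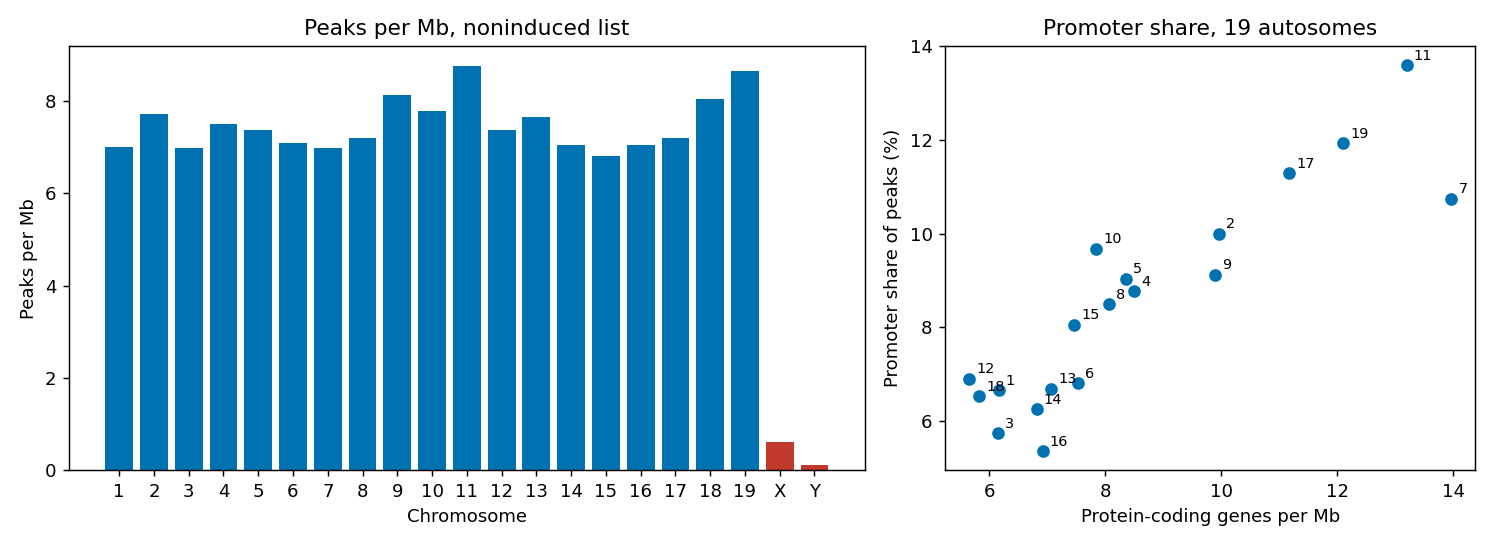
Left, peaks per Mb of each chromosome, with autosomes in blue and X and Y in red. Right, share of peaks in promoters against protein-coding genes per Mb for the 19 autosomes. Autosomes lie between 6.81 and 8.75 peaks per Mb and X at 0.615, and the promoter share is highest on chromosome 11.

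Chromosome X was sparse and chromosome Y more so. X held 105 peaks, or 0.615 per Mb, 12.1-fold fewer than the autosomes, and Y held 11, or 0.121 per Mb. Median density on X was 25.5 tags per kb, close to that on the autosomes. Of the 4 X peaks with over 100 tags, 3 lay in about the last 2 Mb, near Asmt (242 tags), in Mid1 (127 tags) and over Erdr1 (34.8 tags per kb). That end of X holds the region it shares with Y, and its 5 peaks carried 22.5% of the tags in X peaks. On Y, 5 of the 11 peaks lay beyond 90 Mb, at Erdr1 and G530011O06Rik, with 251 of 348 tags. The others lay before 90 Mb with 14 to 19 tags each, among them an intronic peak of Kdm5d (14 tags). The sex of the animals and the tags of X in the input were not known here, and their part in the low count was not tested.

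Peaks were spread over most of the autosomes and clustered in places. Of 2450 autosomal windows of 1 Mb, 2406 held a peak, with a median of 7 and quartiles of 5 and 10. The mean was 7.41 and the variance 15.6. The fullest window (chr8:85000001-86000000) held 24 peaks around Itfg1, Neto2, Phkb and Dnaja2, of which 1 was in a promoter. Windows of 22 peaks lay on chromosome 16 within and around Cadm2, on chromosome 6 around Rassf8 and Sspn, and on chromosome 7 around Dennd5a, Ric3 and Stk33. The median gap from the centre of a peak to that of the next was 80.9 kb, and 4.06% of gaps were under 5 kb.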

How the data were processed

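Peaks came from 1 transketolase ChIP library of noninduced retina called against its input. Reads were aligned with Bowtie2 2.2.7 to mm10 (GRCm38), per the submitters' processing notes. The sources used here name no peak caller. The deposited tag counts are whole numbers with no normalization. The authors deposited each peak's fold, a ratio to a background of unstated estimate, its false discovery rate as a percent, and a score, 10 times −log10 p, given here as −log10 p. Fold, score and false discovery rate are the authors' own values and describe or rank peaks within the list. Classes are the authors': promoter peaks have a centre within 2 kb of a start site and upstream peaks lie up to 20 kb before it.

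Each position was counted 1 time, with the annotation line nearest to a start site. Genes came from RefSeq (GRCm38.p6), which matched 99.7% of transcripts, and overlaps needed 1 bp. With 1 library no test was possible and no p-value is given. Total depth is unknown. Overlap and ranking steps were tested on simulated data. The tools were pandas 2.3.3, scipy 1.17.1, numpy 2.4.6 and matplotlib 3.10.9, run under Python 3.11.15.

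The peaks, gene lists and settings were chosen with earlier results of these data known. Named genes were Tkt and Vegfa, the 10 densest promoter peaks, the 5 densest of each other class, the densest of each chromosome, the 10 genes with most peaks, and list members with promoter or exon peaks (every one for ER stress and pentose phosphate, 3 for other lists). Some genes that this rule names are not reported here. The workbook's 3 sheets without values stayed out.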

Additional observations from a re-analysis of the deposited data

How the results depend on the processing

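No paired analysis was possible because there was 1 ChIP library, and for the same reason no replicate could be left out. Of 33 alternative values, 17 stayed within their limits, 16 moved and 0 reversed. Restricted to a −log10 p of 10 or more, the list held 153 peaks, with 18.3% in promoters, 35 genes with a promoter peak, 0 ER stress genes, a median promoter density of 31.57 tags per kb, and 0.06103 and 0.02344 peaks per Mb on the autosomes and X. Fewer peaks follow from that threshold. At a false discovery rate of at most 5% the promoter share was 9.064% and the median promoter density 25.34 tags per kb. Where promoters reached 1 kb from a start site, their share was 5.425%, or 5.8% of the 500 densest peaks against 8%, and 1089 genes had a promoter peak. Counting each line of the sheet gave 9.918%. Ranked by tag count, 17.6% of the top 500 were in promoters, and by fold 12.8%, while the pseudogene share of the top 50 by fold was 26%. Between these rankings the cause was not tested. The 28 densest peaks that overlapped an induced peak were 22 to 28 under the alternatives run. With 14 tags as the floor and unknown depth, an unlisted site is not shown to be unbound.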
